A study of Mus musculus with 2 samples.

Results

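The replication-dependent histone genes were taken as the protein-coding genes of the GENCODE vM21 annotation whose symbol starts with Hist1h, Hist2h, Hist3h or Hist4h. This rule gave 67 of 21938 protein-coding genes on chromosomes 1 to 19, X and Y, namely 6 genes for linker histone H1, 18 for H2A, 18 for H2B, 12 for H3 and 13 for H4. The assay was DNase-seq, in which DNase I cuts accessible DNA first, on heart tissue from B6NCrl mice at postnatal day 0. The single group held 2 libraries, numbered biological replicates 1 and 2, with separate biosample labels, the same donor label and no sex recorded, so any SD given is the spread between these samples and may be technical. The labels name no treatment, allele or second tissue, and whole heart tissue mixes cardiomyocytes with other cell types, so fewer cells with an open site and a weaker site per cell cannot be told apart. The 6 heart markers, among them Myh6, Tnnt2 and Nkx2-5, carried a promoter peak in both libraries, and none of 6 markers of other tissues did, with 1 peak of value 16 at Neurod1 in replicate 2.

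Cells that copy their DNA need new histones in the same hours, and the replication-dependent genes supply them in S phase. These genes lie in clusters, mostly lack introns, and their mRNAs end in a conserved stem-loop in place of a poly(A) tail, which the stem-loop binding protein holds. Core histones H2A, H2B, H3 and H4 form the nucleosome, and H1 sits on the linker DNA between nucleosomes. In the newborn mouse heart many cardiomyocytes still synthesise DNA before they leave the cell cycle.

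Histone promoters carry short elements, some of them shared between histone types, so a few peak sequences are shown first (build mm10, 5′ to 3′). The highest histone peak of both libraries lay between the start codons of Hist1h2ac and Hist1h2bc, which are transcribed away from each other. It is set beside the centre of the interval between Hist1h2ba and Hist1h2aa, testis-type H2B and H2A genes with the same arrangement and no peak. Both are on the plus strand, at chr13:23684016-23684165 and chr13:23934235-23934384, and capitals mark CCAAT and the octamer ATTTGCAT on either strand.
Hist1h2ac and Hist1h2bc: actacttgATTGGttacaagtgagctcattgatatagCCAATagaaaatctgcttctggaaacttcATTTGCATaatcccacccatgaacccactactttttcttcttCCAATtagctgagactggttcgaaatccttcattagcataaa
Hist1h2ba and Hist1h2aa: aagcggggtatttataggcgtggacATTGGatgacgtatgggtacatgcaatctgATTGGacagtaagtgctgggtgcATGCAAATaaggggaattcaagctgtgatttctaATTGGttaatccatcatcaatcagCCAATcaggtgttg

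The H3 example is the peak of Hist1h3g at chr13:23535196-23535345 on the plus strand, again with CCAAT in capitals. The H4 examples are the peak of Hist1h4c at chr13:23698476-23698625 on the minus strand and the promoters of Hist1h4m at chr13:21811644-21811743 on the plus strand and Hist1h4n at chr13:21832199-21832298 on the minus strand. In the H4 sequences capitals mark GTCCG, the core recognised by the H4 transcription factor HINFP. Hist1h4m and Hist1h4n are shown from 140 to 41 bases before the start codon, because neither had a peak, and they differed at 0 of 100 bases.
Hist1h3g: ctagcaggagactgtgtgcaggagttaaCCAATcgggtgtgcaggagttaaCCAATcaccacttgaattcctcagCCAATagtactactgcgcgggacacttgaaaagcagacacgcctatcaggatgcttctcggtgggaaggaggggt
Hist1h4c: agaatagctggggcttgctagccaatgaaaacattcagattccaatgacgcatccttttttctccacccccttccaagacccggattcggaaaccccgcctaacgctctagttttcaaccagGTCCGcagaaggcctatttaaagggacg
Hist1h4m: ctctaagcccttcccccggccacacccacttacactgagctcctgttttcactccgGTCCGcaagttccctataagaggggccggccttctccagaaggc
Hist1h4n: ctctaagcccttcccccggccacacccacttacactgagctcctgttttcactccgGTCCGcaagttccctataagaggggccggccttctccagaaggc

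For H1, the 150 bases before the RefSeq start (GRCm38.p6, plus strand) are given for Hist1h1c and Hist1h1a, which had a peak, and for the testis gene Hist1h1t, which had none. They lie at chr13:23738657-23738806, chr13:23763518-23763667 and chr13:23695661-23695810. Capitals mark the H1 element AAACACA, known as the AC box, and CCAAT.
Hist1h1c: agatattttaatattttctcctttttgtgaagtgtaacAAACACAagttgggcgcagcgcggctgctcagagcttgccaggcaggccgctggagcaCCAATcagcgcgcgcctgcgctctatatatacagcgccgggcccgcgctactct
Hist1h1a: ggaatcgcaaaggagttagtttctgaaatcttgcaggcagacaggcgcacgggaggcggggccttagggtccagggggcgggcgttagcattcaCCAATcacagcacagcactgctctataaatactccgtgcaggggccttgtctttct
Hist1h1t: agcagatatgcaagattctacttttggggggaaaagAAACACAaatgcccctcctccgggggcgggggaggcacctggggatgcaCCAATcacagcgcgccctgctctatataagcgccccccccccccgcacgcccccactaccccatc

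A promoter peak was a 150 bp peak with its centre within 500 bp of any annotated transcription start site (TSS) of a gene, and the value is the deposited signal value of the highest one, a whole number that reached 145 in replicate 1 and 148 in replicate 2 over all peaks. Of the 67 histone genes, 55 (82.1%) carried a promoter peak in both libraries, beside 63.7% of all protein-coding genes, and the same 55 had one in each library taken alone, beside 66.0% of all genes in replicate 1 and 65.2% in replicate 2. Histone promoters are rich in CpG, with a median observed over expected ratio of 0.88 around the TSS beside 0.55 over all genes. In the 2 deciles of genes with the highest ratio, 43 of 51 histone genes had a peak in both libraries, beside 96.2% of all genes of those deciles. A hotspot, which is a wider region of raised cleavage, lay within 500 bp of a TSS of 55 histone genes in both libraries, beside 64.5% of all genes. The top deposited −log10 q of 100 was reached in both libraries at 52 histone genes, beside 52.4% of all genes. The 3 others were Hist1h2ab, Hist2h2aa1 and Hist2h2aa2, which reached it in replicate 2 alone.

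Where a promoter peak was present, its median value over histone genes was 102 in replicate 1 and 95 in replicate 2, beside 88 and 84 over all protein-coding genes with one. Over the protein-coding genes of the CpG deciles that histone genes fall in, the medians were 91 and 87. With each distinct peak counted once, the histone median over both libraries was 94.5 in place of 98.5. The quartiles over histone genes were 87.5 and 107.5 in replicate 1 and 87 and 105 in replicate 2. Replicate 1 was higher at 35 genes, replicate 2 at 16, and 4 were equal. The median difference was 2, beside 4 over all genes, and the largest was 23, at Hist1h4h. In replicate 1, 74.5% of histone genes with a promoter peak had a single one, and 69.1% did in replicate 2, beside 37.8% and 38.5% of all genes with one. The widest hotspot of a histone gene had a median width of 300 bp and 375 bp, beside 669 bp and 693 bp over all genes. Peaks and hotspots were taken over the windows of all TSSs of a gene, and nearly all histone genes have a single annotated TSS. A gene with more TSSs had more sequence searched, so the all-gene shares and widths are not a matched background. The 55 highest peaks were 46 distinct ones in each library, because 9 were shared by a pair of genes, so genes are not independent measurements. In 32 of the 55 genes the highest peak lay at the same position in both libraries, and in the rest the libraries' peaks overlapped, with a largest shift of 80 bp.

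**Figure D1:**
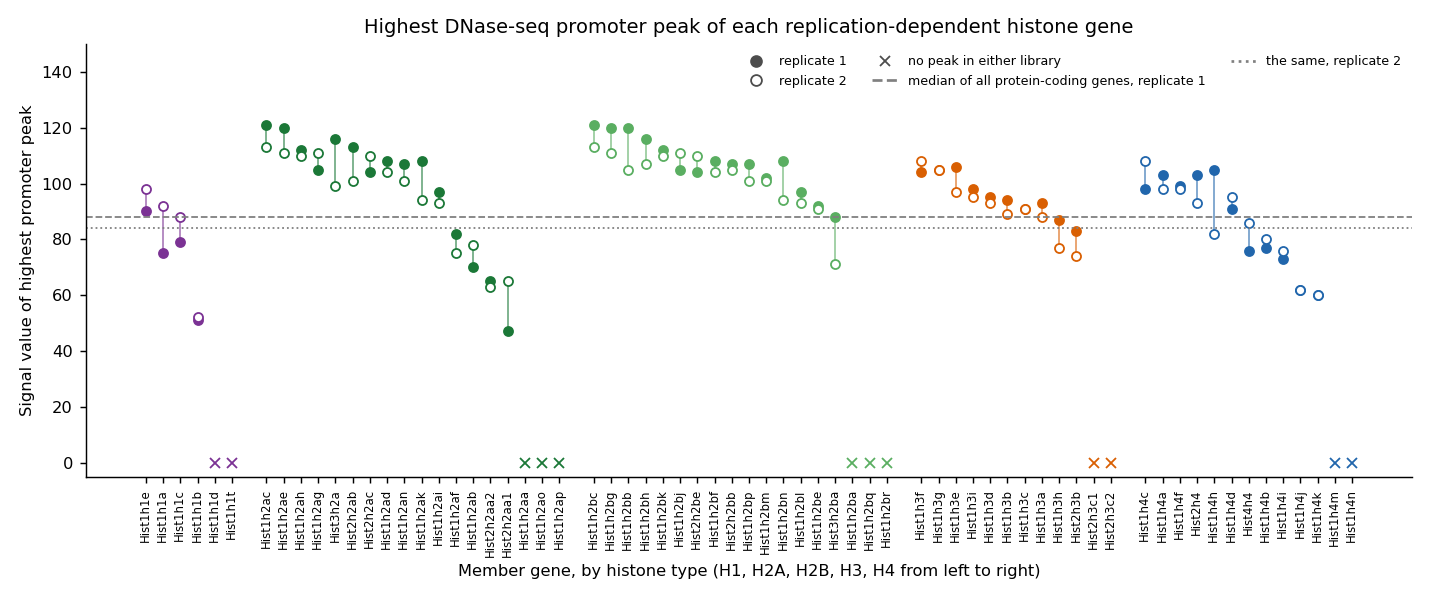
Signal value of the highest promoter peak of each of the 67 genes by histone type, in replicate 1 (filled) and replicate 2 (open), with the medians of all protein-coding genes as lines (88 and 84). Most H2A and H2B genes lie above both lines, the H1 and H4 genes lie on both sides, and crosses at 0 mark the 12 genes with no promoter peak.

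Linker histone H1 genes with a promoter peak, 4 of 6, had a median of 77 in replicate 1, the lowest of the 5 types, and of 90 in replicate 2, where H4 was lower. Hist1h1e gave 90 and 98, Hist1h1a 75 and 92, Hist1h1c 79 and 88, and Hist1h1b 51 and 52. All 4 were higher in replicate 2, and Hist1h1b stood below the other 3 in both libraries. Hist1h1d had no peak at its annotated TSS, which GENCODE places 1828 bp before the start codon, but a peak of 77 and 81 lay at −60 bp from the start codon. By the start codon, 5 of 6 H1 genes were therefore covered and only Hist1h1t, the testis H1, had no peak within 500 bp in either library. The 150 bases shown above for Hist1h1t hold AAACACA and CCAAT as those of Hist1h1c do.

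Promoter peaks were called in both libraries for 15 of 18 H2A genes, with medians of 107 and 101, and for 15 of 18 H2B genes, with medians of 107 and 105. Both medians stood above those of H1, H3 and H4 in each library. In 12 places an H2A and an H2B gene are transcribed away from each other, with start codons 278 to 334 bp apart. At 9 of these pairs both genes had the same highest peak in both libraries, which cannot be assigned to either gene. The peak of Hist1h2ac and Hist1h2bc gave 121 and 113 (117 ± 5.66, SD, n = 2), that of Hist1h2ae and Hist1h2bg gave 120 and 111 (116 ± 6.36), and that of Hist1h2ah and Hist1h2bk gave 112 and 110 (111 ± 1.41). The lowest of the 9 shared peaks, at Hist1h2bl and Hist1h2ai, gave 97 and 93. The 9 pairs thus lay above the all-gene medians in both libraries.

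The other 3 pairs had no peak in either library. They were the testis pair Hist1h2ba and Hist1h2aa and the pairs Hist1h2bq with Hist1h2ao and Hist1h2br with Hist1h2ap, which are near-identical copies of each other. Among H2A and H2B genes outside these pairs, Hist1h2bb gave 120 and 105. Hist3h2a on chromosome 11 gave 116 and 99, at a promoter shared with Trim17 and a non-coding neighbour, and Hist3h2ba beside it gave 88 and 71. Hist2h2ab gave 113 and 101 within 500 bp of a TSS of Bola1. The lowest H2A genes were Hist2h2aa1, with 47 and 65, and Hist2h2aa2, with 65 and 63, whose highest peaks were centred between −411 and −340 bp from the start codon, farther than in any other H2A gene. In both, 14.5% of the 32-base words in the 300 bp before the start codon occur once in the genome, and each shares 66.7% of the words around its TSS with the other. The part of this repeated sequence in their low values and distant positions was not tested. Hist1h2be has annotated TSSs up to 35168 bp before its start codon, next to Hist1h1e, where its highest window peak gave 92 and 91. A peak of 105 and 98 lay at −94 bp from its start codon, more than 500 bp from any annotated TSS.

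Promoter peaks were called in both libraries for 10 of 12 H3 genes, with medians of 94.5 and 92. The values ran from 83 and 74 at Hist2h3b and 87 and 77 at Hist1h3h to 106 and 97 at Hist1h3e, 105 and 105 at Hist1h3g and 104 and 108 at Hist1h3f. The H3 genes without a peak were Hist2h3c1 and Hist2h3c2, an inverted pair of copies on chromosome 3. Among H4 genes 11 of 13 had one in both libraries, with medians of 91 and 86. Hist1h4c gave 98 and 108, Hist1h4a 103 and 98, and Hist1h4f 99 and 98. At the low end were Hist1h4j, with 62 in both libraries, and Hist1h4k, with 60 in both, which share 36.5% of the 32-base words within 500 bp of their TSSs. Sharing of this size was not limited to low genes, since Hist1h2ac, with 121 and 113, shares 46.7% with its closest copy. The part of shared sequence in the low values was not tested. Hist4h4, alone on chromosome 6, gave 76 and 86, and Hist1h4h gave 105 and 82 (93.5 ± 16.3, SD, n = 2). The H4 genes without a peak were Hist1h4m and Hist1h4n, whose identical promoters are printed above.

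Most of the missing peaks coincided with sequence that is repeated elsewhere in the genome. The share of 32-base words that occur once in the reference, on either strand, had a median of 100% in the 300 bp before the start codon and of 15.7% in the coding sequence. By type the coding median was 83.9% for H1, 11.7% for H2A, 14.4% for H2B, 9.87% for H3 and 23.1% for H4. In the 8 genes with under 20% unique words within 500 bp of the 5′-most TSS, no peak was called in either library. These were Hist1h2bq, Hist1h2ao, Hist1h4m, Hist1h4n, Hist1h2ap and Hist1h2br, in an inverted duplication on chromosome 13, and Hist2h3c1 and Hist2h3c2. Each shared 95.2% to 99.8% of its words with its copy. Over all protein-coding genes, 1004 (4.58%) had under 20% unique words, and 17 of these (1.69%) had promoter peaks in both libraries. Of the 59 other histone genes, 56 had a peak within 500 bp of the start codon in both libraries, and the remaining 3 were Hist1h1t, Hist1h2aa and Hist1h2ba. Those 3 testis genes had 100% unique words in the 300 bp before the start codon. How reads from repeated sequence were treated is not given in the sources used here. The 8 genes therefore cannot be called closed, and the part of repeated sequence in their missing peaks was not tested.

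**Figure D2:**
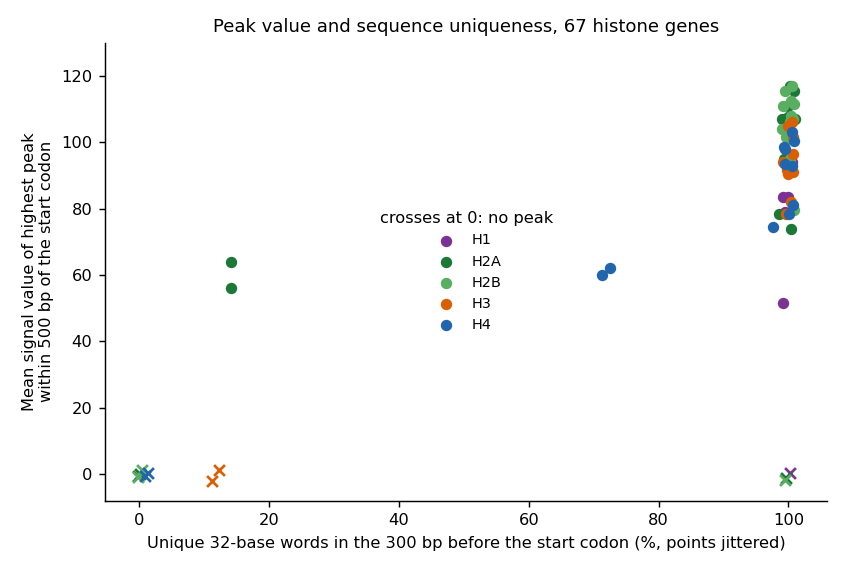
Mean signal value (replicates 1 and 2) of the highest peak within 500 bp of the start codon against the share of 32-base words in the 300 bp before it that occur once in the genome, for the 67 genes coloured by histone type. Crosses at 0 are genes with no peak: 8 lie at the left with little unique sequence, beside 2 genes with a peak (Hist2h2aa1 and Hist2h2aa2), and the 3 testis genes lie at 100%.

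Measured from the start codon, peaks took a place that differed by histone type. With upstream positions negative, the median centre lay at −73 and −53 bp for H1 in replicates 1 and 2, and at −92 bp in both for H4. It lay at −98.5 and −117 bp for H3, −161 and −148 bp for H2A, and −157 and −158 bp for H2B. The H1, H3 and H4 medians were nearer to the start codon than those of H2A and H2B in both libraries, and the start codons of a divergent pair are themselves 278 to 334 bp apart. Hist1h4a was an exception among H4 genes, with its highest peak at −333 and −273 bp.

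**Figure D3:**
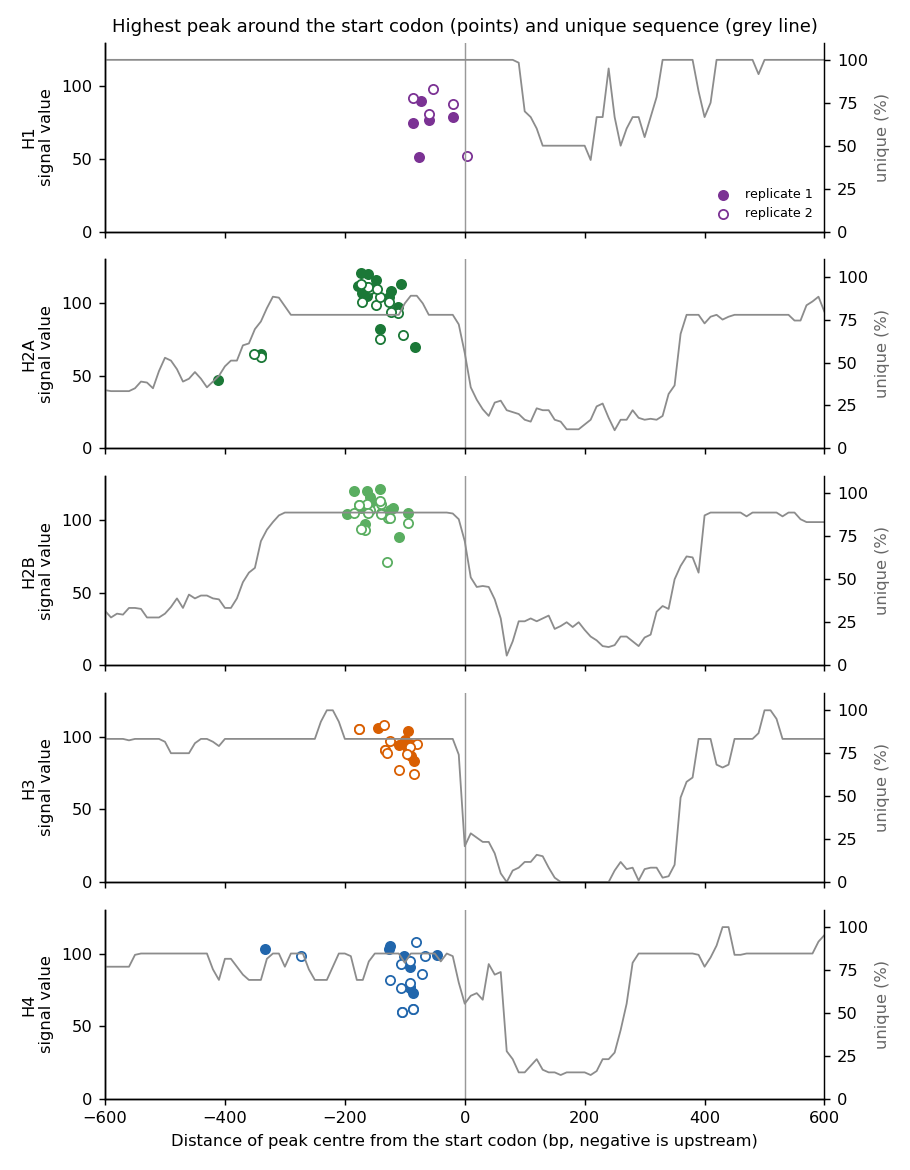
Highest peak within 500 bp of the start codon of each gene by histone type, with the distance of its centre in bp on the x axis and its signal value on the left axis (replicate 1 filled, replicate 2 open). The grey line gives the mean share of unique 32-base words on the right axis. H2A and H2B peaks centre at medians of −161 to −148 bp and H4 peaks at −92 bp, in sequence that is more unique than the coding sequence to the right of 0.

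Promoter elements were read from RefSeq promoter sequences (GRCm38.p6, 250 bases before to 50 after the start) of 62 histone genes, beside 32788 promoters of other genes, on both strands. No entry was matched for Hist1h3f, Hist1h2bc, Hist1h3a, Hist2h2be and Hist2h4. CCAAT was in 53 of 62 histone promoters (85.5%) beside 37.3% of other promoters, in every H1, H2A, H2B and H3 promoter matched and in 3 of 12 of H4. GTCCG was in all 12 H4 promoters and in 27 of 62 overall (43.5%), beside 23.4%. The octamer ATTTGCAT was in 14 histone promoters (22.6%), 7 of H2A and 7 of H2B, beside 1.70%. AAACACA was in 5 of 6 H1 promoters and 9 of 62 overall (14.5%), beside 7.17%, and Hist1h1a was the H1 gene without it. TATAAA was in 35 of 62 (56.5%) beside 13.5%, and the E2F letters TTTNNCGC were in 19 (30.6%) beside 5.12%, 16 of them of H2A or H2B. GGGCGG was in 24 (38.7%) beside 35.7%, close to the share of other promoters. TGACGTCA was in 4 (6.45%) beside 1.78%, and GGTTCGA was in 1 (1.61%) beside 0.909%. These are matches of letters and show no binding, and divergent genes share part of their promoter sequence.

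Within the highest peaks themselves, CCAAT lay in all 10 H3 peaks and 19 of 21 distinct H2A or H2B peaks of replicate 1, and in the same numbers in replicate 2, beside 20% and 20.4% of all promoter peaks. GTCCG lay in 10 of 11 H4 peaks in each library, beside 20.5% and 20.9%, and in 1 of 21 H2A or H2B peaks. GGGCGG also lay in 10 of 11 H4 peaks, beside 37.9% and 38.8%, but in 0 of 10 H3 peaks and in 14 of 47 histone peaks in each library. The E2F letters TTTNNCGC lay in 3 of 47 histone peaks in replicate 1 and 5 of 47 in replicate 2. These are small counts, with shares above the 3.63% and 3.87% of all promoter peaks. The H1 element AAACACA lay in 0 of 5 H1 peaks and 2 of 21 H2A or H2B peaks in each library, beside 2.08% and 2.14%. Its presence in H1 promoters therefore does not place it inside their highest peaks. The octamer lay in 7 of 21 H2A or H2B peaks, beside 0.736% and 0.692%. The Hist1h2ac and Hist1h2bc peak printed above holds the octamer, and so does the interval between Hist1h2ba and Hist1h2aa, where no peak was called. The H4 promoters of Hist1h4m and Hist1h4n hold GTCCG as Hist1h4c does, and no peak was called there. These genes had only 3.81% and 2.89% unique words around the TSS and cannot be called closed. Their missing peaks therefore do not show GTCCG at a closed promoter.

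A second set of peaks lay after the coding sequence. With a window of 600 bp after the stop codon, chosen with the values in view, 18 of 67 histone genes had a peak in both libraries, beside 5.70% of 21752 protein-coding genes with an annotated stop codon. They were 4 of 6 H1 genes, 1 H2A, 4 H2B, 3 H3 and 6 H4 genes. In such short genes the window after the stop codon can overlap the gene's own promoter window, so 5.70% is not a matched background. At Hist1h4j, Hist2h2be and Hist1h2an the peak lay within 500 bp of the gene's own TSS in both libraries. The same held for Hist1h4k in replicate 1, where its peak gave 24 at 84 bp, while in replicate 2 a different one gave 20 at 384 bp. At 3 of the 18 the peak lay within 500 bp of a neighbour's TSS in both libraries: that of Hist1h4a at Hist1h3a, those of Hist2h2bb and Gm42743 at Hist2h3b, and that of Gm44346 at the H2A gene, Hist1h2an, whose peak gave 35 and 24 at 16 and 36 bp. Hist1h1b had a peak of 109 and 89 centred 413 and 393 bp after its stop codon, beside 51 and 52 at its start codon. Hist1h1d had 107 and 103 at 455 and 475 bp, beside 77 and 81 at its start codon. Hist1h1c had 116 and 91 at 283 and 303 bp, beside 79 and 88. These 3 H1 genes were higher behind than in front in both libraries, and so were Hist1h4h, described next, and Hist1h3a and Hist2h3b, whose peaks lay near a neighbour's TSS. Hist1h1e had 95 and 84 at 128 bp, beside 90 and 98, so the order changed with the library. No such peak was called at Hist1h1a or Hist1h1t.

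Among core histone genes Hist1h4h had 108 and 100 at 324 bp after the stop codon, beside 105 and 82 at its start codon. Hist4h4 had 80 and 77 at 218 bp, beside 76 and 86. Hist1h2bc had 79 and 59 at 238 bp, below its promoter value. Hist2h4 had 102 and 96 at 623 and 603 bp, just outside the window, and Hist1h4a, with 46 and 43 at 596 and 576 bp, lay just inside. None of the downstream peaks of H1 genes lay within 500 bp of an annotated TSS. The one behind Hist1h1b is shown, since it was the highest peak away from any TSS in its cluster in both libraries (chr13:21779396-21779545, minus strand, capitals mark any of the letter motifs named above).
Hist1h1b downstream: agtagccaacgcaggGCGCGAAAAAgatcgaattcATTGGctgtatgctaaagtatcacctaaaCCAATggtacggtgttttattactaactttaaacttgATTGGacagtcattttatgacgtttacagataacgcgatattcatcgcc

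**Figure D4:**
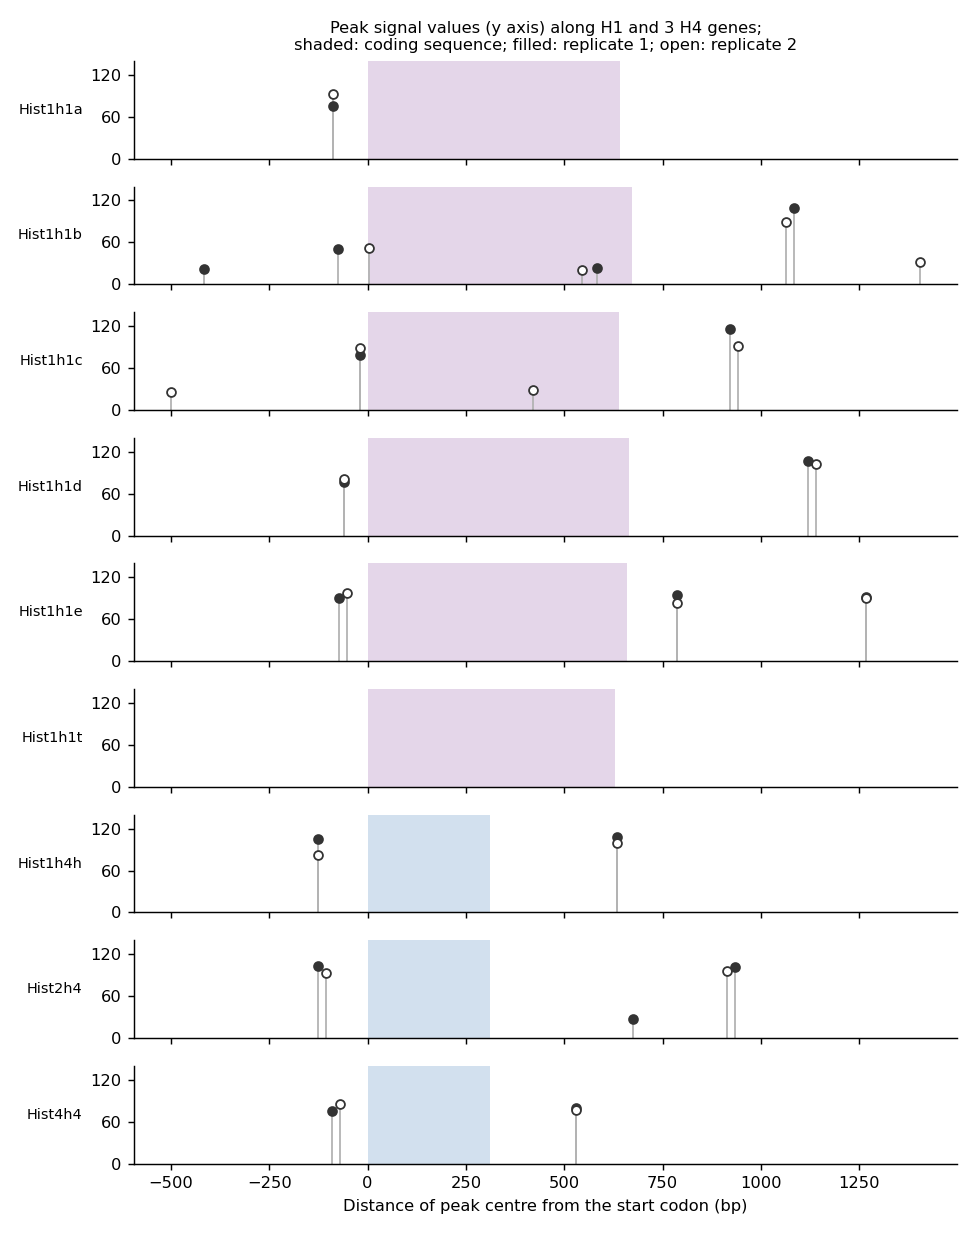
Peaks from 500 bp before to 1500 bp after the start codon of the 6 H1 genes and 3 H4 genes, with the distance of the peak centre in bp on the x axis and the signal value on the y axis (replicate 1 filled, replicate 2 open, coding sequence shaded). A peak lies behind the coding sequence in all rows but those of Hist1h1a and Hist1h1t.

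The genes fell into clusters when neighbours within 200 kb were joined. The first cluster on chromosome 13 spanned 328 kb with 23 histone genes, of which 17 had a promoter peak in both libraries. The second spanned 404 kb with 31, of which 27 did, and the cluster on chromosome 3 spanned 50.3 kb with 10, of which 8 did. Peaks were denser there than elsewhere, with 18.3 and 20.4 peaks per 100 kb in the first cluster, 16.3 and 16.8 in the second and 31.8 and 29.8 on chromosome 3. The whole genome had 6.04 and 5.31 per 100 kb, chromosome 13 had 6.33 and 5.71, and chromosome 3 had 5.49 and 4.90. Hotspots covered 4.27% to 9.91% of the 3 clusters, beside 1.62% and 1.49% of the genome. Density was not compared with that of other gene-dense regions.

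In the second cluster the peaks of highest value away from any TSS were those behind Hist1h1c, Hist1h4h and Hist1h1d and the one before the start codon of Hist1h2be. In the first cluster 33 peaks of replicate 1 and 43 of replicate 2 lay away from any TSS, and 16 and 24 of these lay within 500 bp of a transfer RNA gene. The cluster holds 31 transfer RNA genes, 10 of which had a peak within 500 bp in both libraries, beside 46.2% of 403 in the genome. Among other protein-coding genes inside the clusters, 1 of 3 in the first (Zfp184) and 3 of 6 in the second (Hfe, Slc17a1 and Slc17a4) carried a promoter peak in both libraries.

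**Figure D5:**
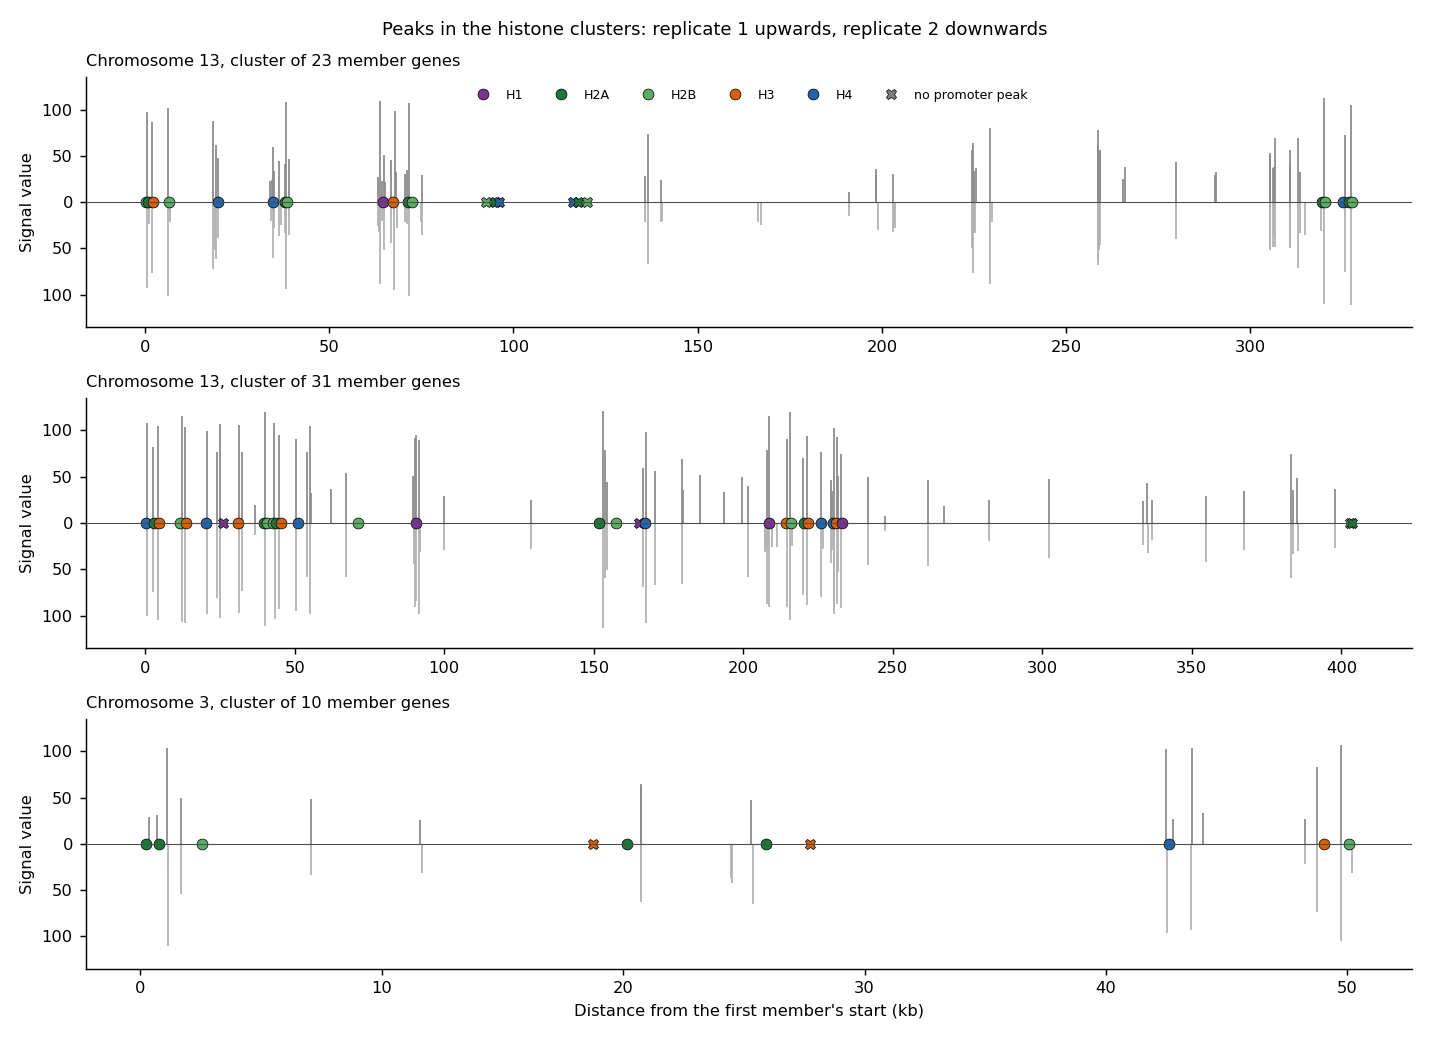
Peaks of replicate 1 (upwards) and replicate 2 (downwards) across the 2 clusters on chromosome 13 and that on chromosome 3, with the distance from the first histone gene in kb on the x axis and the signal value on the y axis. Circles mark histone genes by type, and crosses mark genes with no promoter peak: 6 in one stretch of the first cluster, 4 in the second cluster and 2 on chromosome 3.

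Nearly all of the genes share an RNA signal at their end. The 16-base histone stem-loop was found within 150 bp after the stop codon in 65 of 67 genes, at a median of 31 bp and between 22 and 59 bp. It was not found there for Hist1h2an and Hist2h2be. There were 8 distinct sequences, and 41 genes carried the commonest one, printed with its loop in capitals.
Stem-loop: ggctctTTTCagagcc

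Genes whose products act on these promoters, mRNAs and proteins were open as well. All 19 listed genes for histone gene transcription and mRNA processing carried a promoter peak in both libraries, with medians of 103 and 97. The highest were Hinfp (130 and 116), Npat (126 and 119), the histone locus coactivator, and Casp8ap2 (124 and 117), and Slbp, for the stem-loop binding protein, gave 122 and 115. So did all 10 histone chaperones (medians 111 and 104.5, Asf1b highest at 131 and 128) and all 24 genes of S-phase DNA synthesis (106 and 101.5, Pcna at 125 and 122). All 11 replication-independent histone genes, most of which are transcribed through the cell cycle, had one too, with medians of 114 and 101. H3f3b (120 and 119) and H2afx (122 and 113) stood at the top of that list and H1fx (52 and 49) at the bottom. None of 7 germline histone genes outside the clusters had one in either library, as was the case for the 3 testis genes inside them. All of the 7 but H2bfm had a CpG ratio of at most 0.447, below the all-gene median of 0.55. Peaks are rarer at CpG-poor promoters, with 18.0% of all genes in CpG decile 2. H2afb1, H2afb2 and H2afb3 also had only 41.2% to 56.4% unique words around the TSS. The part of CpG content and repeated sequence in these missing peaks was not tested. The shares of these short lists are to be read beside the 63.7% of all protein-coding genes. Most listed genes with a peak also have CpG-rich promoters. Among all genes, 91.6% of CpG decile 7 and 96.6% of decile 10, the highest, had a peak in both libraries, so full lists lie near that share.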

How the data were processed

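DNase-seq of 2 newborn mouse heart libraries was used as deposited on build mm10. Per the text deposited with the data, each replicate was called on its own from filtered alignments. The sources used here name no aligner, caller, filter or read length. Peaks were deposited with a signal value each, of no stated normalization, and all are 150 bp long. Hotspots were deposited with −log10 q-values, and the deposited score column was not used. Replicate 1 had 164657 peaks and 152488 hotspots on chromosomes 1 to 19, X and Y, and replicate 2 had 144708 and 132624. Depth is unknown, since no read totals were at hand, so no interval from counts was computed, and a missing peak may reflect the caller's threshold.

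Genes, TSSs and codons came from GENCODE vM21, and sequence from RefSeq GRCm38.p6, whose primary sequence is that of mm10. Coordinates are counted from 1. All 67 genes were matched to RefSeq by symbol or synonym and overlapping location, 62 with a promoter entry. Peaks were assigned by their centre, and the percent of words of 32 bases found once was computed over the genome. Python 3.11.15, numpy 2.4.6, pandas 2.3.3, numba 0.67.0 and matplotlib 3.10.9 were used, and peak assignment and word counting were tested on simulated data. With 1 group of 2 libraries no test was made.

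The genes and lists were chosen with earlier results of these data known. Named genes were, for each type, the 3 highest and 2 lowest by mean value, genes with no promoter peak in one library or both, the testis genes, genes outside chromosomes 13 and 3, the 3 with the largest difference between libraries, the 3 highest of other lists and the 5 highest peaks away from a TSS in a cluster, from which examples are given. Hist1h2ab, Hist2h2ab, Hist2h4, Hist1h2ai, Hist1h2an, Hist1h2bl, Hist1h2bk, Hist1h2bm, Hist1h3a, Hist2h2bb, Slbp and H1fx were named after their values were seen.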

Additional observations from a re-analysis of the deposited data

How the results depend on the processing

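The 55 genes with a promoter peak in both libraries became 51 with a window of 250 bp and 55 with 1000 bp, with only the 5′-most TSS, with only peaks at or above the median value of each library, with any overlap of peak and window, and when the peaks of both libraries had to overlap. The hotspot count ranged from 52 to 55 over its alternatives. The median value over both libraries was 98.5 and ranged from 94.5, with each distinct peak counted once, to 101, with a window of 1000 bp. Leaving out a replicate gave 55 promoter peaks and 55 hotspots each time, medians of 95 and 102, between 76 and 83 peaks away from any TSS inside the clusters and between 70 and 71 near one. Counts by type moved by at most 2 genes, H2A to 13 with a window of 250 bp. Peaks inside the clusters away from any TSS averaged 79.5 per library and fell to 47 with only peaks at or above the library median, while those near a TSS were 70.5 and 56. Joining clusters within 500 kb changed neither. Of 131 values of named genes under alternatives, 5 moved by more than the spread between libraries, all with the window of 1000 bp, which takes in a neighbouring peak. The 131 include values with a replicate left out, which cannot move by this rule. They do not include Hist1h3f, Hist1h4a, Hist2h2aa1 and Hist2h2aa2 with the window of 250 bp, where these genes lost their promoter peak. Use of the start codon in place of the TSS, which gave 56 genes, counting distinct peaks once and leaving out the genes with under 20% unique words were chosen after seeing the data. No paired analysis was possible because the study has 1 group. Unknown depth limits what a missing peak shows.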

Other observations

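The 3 annotated pseudogenes with the same symbol prefixes were not counted among the 67 genes. Hist3h2bb-ps on chromosome 11 had a promoter peak of 116 and 99 in replicates 1 and 2, the one of Hist3h2a. Hist1h2aj on chromosome 13 had 102 and 101, the one of Hist1h2bm. Hist1h2al on chromosome 13 had none in either library.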
